A study of Mus musculus with 10 samples.

Results

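The 38 genes described here carry out DNA replication and cell division, and they were followed across 10 libraries of mouse B cells. The genes were chosen by name, and all 38 were found among the 17658 genes of the expression table. By role they fall into 11 licensing genes (Orc1, Orc2, Orc6, Cdc6, Cdt1 and Mcm2 to Mcm7), 3 genes of helicase activation (Mcm10, Gins1 and Gins2), 12 genes of the replication fork (Pcna, Rfc1 to Rfc5, Pold1, Pold2, Pole, Prim1, Lig1 and Fen1) and 12 mitotic genes (Ccna2, Ccnb1, Ccnb2, Cdk1, Top2a, Mki67, Aurka, Aurkb, Bub1, Birc5, Plk1 and Cdc20). Of these, 35 had a mean of at least 1 FPKM (fragments scaled to transcript length and to sequencing depth) over the 10 libraries and entered the tests. Orc1, Cdc6 and Bub1 were below that level and are given by their values only.

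The cells were B cells taken from the spleen and lymph nodes of C57BL/6 mice aged 10 weeks and enriched by magnetic depletion of other cells. The study asks how Nr4a1, a nuclear receptor also called Nur77 that is induced when the B cell receptor is engaged, regulates activated B cells. For each genotype, Nr4a1+/+ (wild type) and Nr4a1-/- (knockout), there was 1 library of unstimulated cells and there were 4 libraries, lettered A to D, of cells given 10 µg/mL anti-IgM for 2 h, an antibody that crosslinks the B cell receptor. The labels give no incubation time for the unstimulated cells and do not say whether each letter is a separate mouse, so the p-values below measure the spread between these libraries, which may be technical.

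Replication is prepared and carried out in separate steps. In licensing, the origin recognition complex with Cdc6 and Cdt1 loads the ring of Mcm2 to Mcm7, the core of the replicative helicase, onto origins. Mcm10 and the GINS complex then help to activate it. At the fork, primase lays down primers, replication factor C (Rfc1 to Rfc5) loads the sliding clamp Pcna, polymerases delta and epsilon extend the strands, and Fen1 and Lig1 process and join the lagging strand. Cyclins A and B with Cdk1, the Aurora and Polo-like kinases, the chromosomal passenger Birc5 and the checkpoint and anaphase factors Bub1 and Cdc20 drive mitosis. Resting B cells leave quiescence after receptor engagement. Licensing genes are classical targets of E2F factors, whereas many mitotic genes are controlled through CHR and CCAAT elements bound by the DREAM and MuvB complexes and by NF-Y.

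The promoters of a few members show the letters that were searched for. Each window below runs from 250 bases before to 50 bases after a transcription start in RefSeq (GRCm38.p6) and is written 5′ to 3′ on the gene's strand, here the minus strand for all 6. Mcm6 (chr1:128359656-128359955) and Mcm7 (chr5:138171834-138172133) are subunits of 1 ring that changed differently, with E2F matches in capitals; the Mcm6 window also holds 2 CCAAT matches, and that of Mcm7 3 CCAAT matches and 1 CHR match, which are left in lower case. Pold2 (chr11:5878207-5878506, CCAAT in capitals) and Rfc1 (chr5:65335590-65335889, CCAAT and the E-box CACGTG in capitals) had the largest rise and the largest fall after anti-IgM among the members. Ccnb2 (chr9:70421505-70421804) and Top2a (chr11:99024140-99024439) stand for the mitotic genes, with CHR and CCAAT matches in capitals.
Mcm6: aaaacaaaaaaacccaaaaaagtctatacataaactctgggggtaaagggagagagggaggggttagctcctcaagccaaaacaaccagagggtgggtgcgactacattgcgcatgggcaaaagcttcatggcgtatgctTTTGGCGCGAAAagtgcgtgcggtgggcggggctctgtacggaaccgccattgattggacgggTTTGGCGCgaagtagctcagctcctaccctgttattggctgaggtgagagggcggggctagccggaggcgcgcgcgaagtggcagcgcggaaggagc
Mcm7: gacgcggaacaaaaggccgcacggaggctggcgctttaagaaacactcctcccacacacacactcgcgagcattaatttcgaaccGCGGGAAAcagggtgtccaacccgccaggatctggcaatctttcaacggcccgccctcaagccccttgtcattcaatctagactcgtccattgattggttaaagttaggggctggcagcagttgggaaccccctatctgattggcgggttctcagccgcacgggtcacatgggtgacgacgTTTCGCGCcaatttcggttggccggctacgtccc
Pold2: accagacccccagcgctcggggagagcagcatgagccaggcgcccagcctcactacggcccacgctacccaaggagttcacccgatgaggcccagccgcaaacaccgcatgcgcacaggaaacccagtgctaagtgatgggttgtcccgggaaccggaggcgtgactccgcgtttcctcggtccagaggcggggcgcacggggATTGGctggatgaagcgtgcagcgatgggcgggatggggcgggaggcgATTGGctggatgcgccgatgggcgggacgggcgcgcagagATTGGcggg
Rfc1: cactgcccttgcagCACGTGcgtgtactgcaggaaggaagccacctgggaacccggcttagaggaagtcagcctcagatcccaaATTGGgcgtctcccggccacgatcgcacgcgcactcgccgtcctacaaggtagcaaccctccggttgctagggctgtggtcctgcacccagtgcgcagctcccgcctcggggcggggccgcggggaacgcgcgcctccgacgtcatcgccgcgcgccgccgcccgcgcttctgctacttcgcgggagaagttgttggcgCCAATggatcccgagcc
Ccnb2: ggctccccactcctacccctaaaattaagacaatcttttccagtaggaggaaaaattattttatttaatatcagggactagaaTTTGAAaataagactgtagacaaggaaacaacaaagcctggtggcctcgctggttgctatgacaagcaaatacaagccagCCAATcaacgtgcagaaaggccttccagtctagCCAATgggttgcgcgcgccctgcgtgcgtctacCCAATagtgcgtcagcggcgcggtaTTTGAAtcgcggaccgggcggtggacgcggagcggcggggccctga
Top2a: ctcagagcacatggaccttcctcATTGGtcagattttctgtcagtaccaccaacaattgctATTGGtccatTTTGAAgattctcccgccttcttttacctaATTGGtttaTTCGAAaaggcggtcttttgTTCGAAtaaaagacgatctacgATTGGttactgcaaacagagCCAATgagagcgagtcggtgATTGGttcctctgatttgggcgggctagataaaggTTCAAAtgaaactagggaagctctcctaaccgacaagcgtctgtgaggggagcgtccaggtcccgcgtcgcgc

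A window was at hand for 31 of the 38 members, 37 windows in all. Both strands were searched for E2F letters (TTTCCCGC, TTTGGCGC, TTTCGCGC or TTTGCCGC) and for the CHR element, whose usual form is TTTGAA and whose other form searched here is TTCGAA. They were also searched for the box CCAAT, which NF-Y binds, and for the E-box, spelled CACGTG. Members are counted below by gene, with a match in any window, and all genes by window. E2F letters were found in 7 of the 10 licensing genes with a window, in 3 of 10 fork genes and in 1 of 10 mitotic genes. By window these are 58.3%, 21.4% and 10.0%, and 2.26% of the 32851 windows of all genes hold them. CHR letters and CCAAT occurred together in 8 of 10 mitotic genes, against 2 of 10 licensing genes and 7.52% of all windows. CCAAT alone was common, in 9 of 10 mitotic genes, 8 of 10 licensing genes and 37.4% of all windows, and CHR letters alone in 19.2% of all windows. The E-box was found in 3 fork genes, or 21.4% of the fork windows, and in 7.15% of all windows. In the Mcm6 window 2 of the 3 E2F matches overlap each other, and in Mcm7 an E2F match overlaps a CCAAT match by sharing letters. These matches describe the letters and do not show binding.

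Before the members' values, 4 facts about the libraries bear on them. Summed FPKM was 674961 in the unstimulated wild-type library, 595500 in the unstimulated labelled knockout library and 557214 to 571784 in the stimulated ones, and the number of reads per library is not part of the table. Relative depth estimated from steps between the low values of 17 genes was 0.951 to 1.06 of the mean; only genes with near-equal steps were used, and 10 of the 17 fitted within 6%, so a larger difference in depth could have been missed. Nr4a1 transcript was not absent from the Nr4a1-/- libraries: it was 126 FPKM in both unstimulated libraries, and after anti-IgM 808 ± 47.2 (SD, n = 4) in wild type against 702.1 ± 44.6 in the other genotype, with overlapping values. That log2 difference of -0.20 passed the genotype test used below (adjusted p = 0.0432 in limma), but since the level stayed near that of wild type these libraries are called labelled knockout. These values are per gene and do not show which exons the reads came from. They therefore cannot tell whether the Nr4a1 transcript was intact. All 5 B cell markers examined (Cd79a, Cd79b, Ms4a1, Pax5 and Cd22) were present in every library, their sum being 3339 and 3577 FPKM without stimulation and 1088 to 1209 with it. Of the T cell markers, Cd3e, Cd3d, Cd3g, Cd4, Cd8a and Thy1 were at 0 to 0.53 FPKM in the libraries, Trac was at 0.17 to 1.95, and Lck, a kinase of T cell receptor signalling, was at 17.5 to 66.8.

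Licensing genes were mostly above the level of the median gene, most fork genes below it with Pcna far above, and all mitotic genes below it. The median of the genes' mean levels over the 10 libraries was 25.1 FPKM for the tested licensing genes, 10.9 for fork genes, 3.005 for mitotic genes and 1.71 for helicase activation, and it was 13.98 over all tested genes. FPKM is per length, so these levels can be compared between genes. Pcna was the highest member, at 184 and 152 FPKM in the unstimulated wild-type and labelled knockout libraries.

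Within the licensing group levels were uneven. Mcm6 was the highest licensing gene at 44.8 and 44.5 FPKM without stimulation, while Mcm2, Mcm3, Mcm4, Mcm5 and Mcm7, which share 1 ring with it, lay between 15.5 and 34.0. Cdc6, the loader, was the lowest, with 0.5 FPKM in unstimulated wild-type cells, 0.62 in the labelled knockout library, 0.46, 0.56, 0.72 and 0.56 in the 4 stimulated wild-type libraries (in the order A, B, C, D) and 0.47, 0.71, 0.5 and 0.44 in those labelled knockout. Orc1, of whose exon bases 10.8% overlap Gm12743 on the other strand, was as low, at 0.44 to 0.85 FPKM over the libraries, whereas Orc2 was at 16.5 to 25.6 and Orc6 at 8.84 to 11.9. The partner of Cdc6 in loading, Cdt1, was at 27.2 to 39.6.

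In helicase activation all 3 genes were low. Gins1 had 2.76 and 2.11 FPKM without stimulation, 2.47, 1.78, 2.09 and 2.63 in the stimulated wild type and 1.74, 2.13, 2.03 and 1.79 in the stimulated libraries labelled knockout. Gins2, another subunit of the same complex, had 2.13 and 1.92, then 0.76, 1.33, 1.54 and 1.94, and 0.47, 2.09, 1.3 and 1. Its stimulated groups overlapped, and 67.3% of its exon bases also lie in exons of Gse1 on the other strand. Use of strand in the authors' counting is not given in the sources used here, so such overlapping genes are uncertain.

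At the mitotic end, Top2a, the topoisomerase that untangles sister chromatids, was the highest gene. It had 9.94 and 9.47 FPKM without stimulation, 8.68, 10.3, 9.87 and 8.32 in the stimulated wild type, and 7.74, 12.9, 8.39 and 7.78 in those labelled knockout. Bub1, a spindle checkpoint kinase, was the lowest, with 1.17 and 1.04 FPKM, then 0.67, 0.83, 1.1 and 0.92, and 0.73, 1.25, 0.7 and 0.89. In both genes library B was the highest of the 4 labelled knockout.

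**Figure D1:**
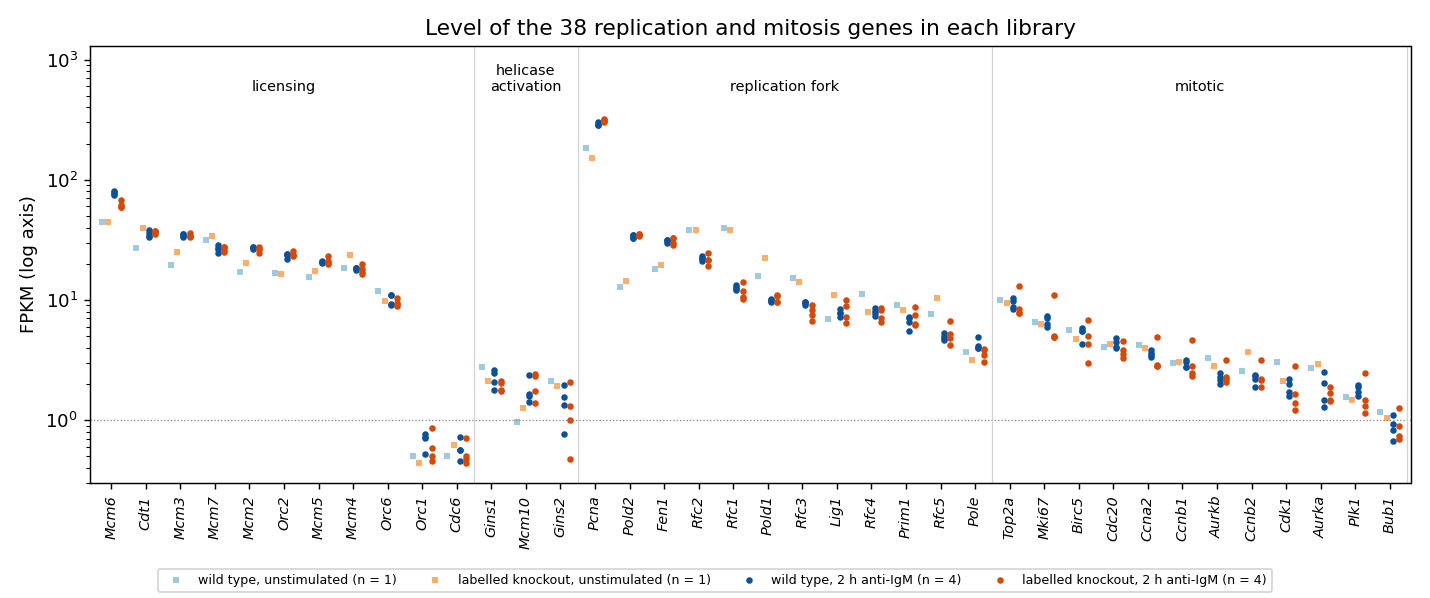
FPKM on a log axis for each of the 38 genes, 1 point per library, ordered by role and then by level. Squares are the 2 unstimulated libraries, circles the 4 stimulated libraries of each genotype, and the dotted line marks 1 FPKM. Pcna, at 152 to 322 FPKM, stands above the rest, and Orc1 and Cdc6 lie below the line in all libraries.

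After 2 h of anti-IgM the replication genes moved in both directions, gene by gene. None of the 11 tested mitotic members passed the test as higher on the deposited scale. Changes were tested with limma on log2(FPKM + 1) over all 10 libraries with genotype in the model, and are log2 differences of stimulated minus unstimulated libraries; the scale understates the change of low genes. Calls by the main rule needed both an adjusted p under 0.05 and an absolute change of 1 or more. On the deposited scale only 2 members were called by it: Pold2 higher and Rfc1 lower. Pcna was also called, as higher, with median-of-ratios scaling and with totals made equal (TPM). Of all tested genes, 7.94% were called higher and 12.4% lower by that rule. With the adjusted p alone, 9 members rose and 12 fell, where 31.2% of all tested genes rose and 47.7% fell, so the members' share was below the background in both directions. The split of all calls depends on scaling: 39.1% were higher as deposited and 59.0% with median-of-ratios scaling, which moves the median change of all tested genes from -0.17 to 0.035. All 9 rises kept their sign and passed with each of 3 other scalings, and 5 of the 12 falls did; over all tested genes 3014 of 3188 rises and 3176 of 4881 falls did. Those 5 are Rfc1, Rfc2, Rfc3, Rfc5 and Pold1.

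Among the licensing genes, 5 rose, 2 fell and 2 did not pass the test. The risers were Mcm3 (log2 change 0.62, SE 0.067), Mcm6 (0.62, SE 0.072), Mcm2 (0.50, SE 0.063), Orc2 (0.49, SE 0.050) and Mcm5 (0.33, SE 0.057), and every stimulated library was above both unstimulated ones for each. Mcm7 fell by 0.29 (SE 0.059) and Mcm4 by 0.20 (SE 0.083), with Mcm4 turning to 0.022 under median-of-ratios scaling and Mcm7 no longer passing there or with totals made equal (TPM). The genes of the ring thus changed unequally on each scale: Mcm3 rose from 19.5 and 24.9 FPKM to 33.1 to 36.3, whereas Mcm7 went from 31.5 and 34.0 to 24.6 to 28.6. Orc6 (-0.14) and Cdt1 (0.13) did not pass. The group's median change was 0.33, against -0.17 for all tested genes. For Orc2, 29.8% of the exon bases also lie in exons of Nif3l1 on the other strand.

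In helicase activation, Mcm10 rose from 0.96 and 1.25 FPKM to between 1.39 and 2.43, which is 0.43 on the log2 scale (SE 0.15; adjusted p = 0.0221 in limma). That call was lost without either unstimulated library (adjusted p = 0.142 without wild type and 0.0764 without the labelled knockout one, both in limma). Gins1 (-0.16) and Gins2 (-0.43) did not pass.

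At the fork, 3 genes rose and 7 fell. Pold2, the accessory subunit of polymerase delta, had 12.7 FPKM in the unstimulated wild-type and 14.4 in the labelled knockout library, then 34.7, 34.9, 32.7 and 32.8 in the stimulated wild type and 35.3, 33.9, 34.7 and 35.5 in those labelled knockout. All 8 stimulated libraries were far above both unstimulated ones and close to each other, and the rise was 1.28 on the log2 scale (SE 0.046; adjusted p = 6.82e-10 in limma). Pold1, the catalytic subunit of the same polymerase, moved the other way, from 15.8 and 22.2 FPKM to between 9.58 and 10.99, a log2 change of -0.83 (SE 0.088). Pole, the catalytic subunit of polymerase epsilon, did not pass (0.15, SE 0.094).

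Clamp and clamp loader also parted. Pcna had 184 and 152 FPKM without stimulation, 289, 286, 300 and 285 in the stimulated wild type and 304, 308, 322 and 314 in those labelled knockout. The stimulated libraries were all higher, by 0.84 on the log2 scale (SE 0.068; adjusted p = 5.1e-07 in limma). All 5 loader subunits fell on the deposited scale. Rfc1, the large subunit, had 40.0 and 38.2 FPKM without stimulation, 13.2, 12.4, 12.0 and 12.7 in the stimulated wild type and 10.2, 14.1, 11.8 and 10.6 in those labelled knockout. No stimulated library came near the unstimulated ones, and the difference was -1.62 on the log2 scale (SE 0.094; adjusted p = 2.87e-08 in limma). Rfc2 (-0.78), Rfc3 (-0.72), Rfc5 (-0.70) and Rfc4 (-0.27) fell less, and Rfc4 turned to 0.024 with quantile normalization. Between 10.7% and 15.1% of the exon bases of Rfc2, Rfc4 and Rfc5 lie in exons of genes on the other strand.

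Of the remaining fork genes, Fen1, the flap endonuclease, rose from 18.2 and 19.4 FPKM to 28.7 to 32.6, a log2 change of 0.69 (SE 0.055). As much as 78.8% of its exon bases are shared with Gm10143 on the other strand. Prim1, a primase subunit, fell by 0.30 (SE 0.12), a call that was lost under each of the 3 other scalings. The calls of Mcm4, Rfc4, Prim1, Aurkb and Ccnb2 were also lost in limma when single libraries were left out, with adjusted p up to 0.794 (Mcm4) and 0.414 (Ccnb2) without the unstimulated labelled knockout library and up to 0.65 (Rfc4), 0.354 (Prim1) and 0.342 (Aurkb) without the unstimulated wild-type one. Lig1 did not pass (-0.14, SE 0.15).

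**Figure D2:**
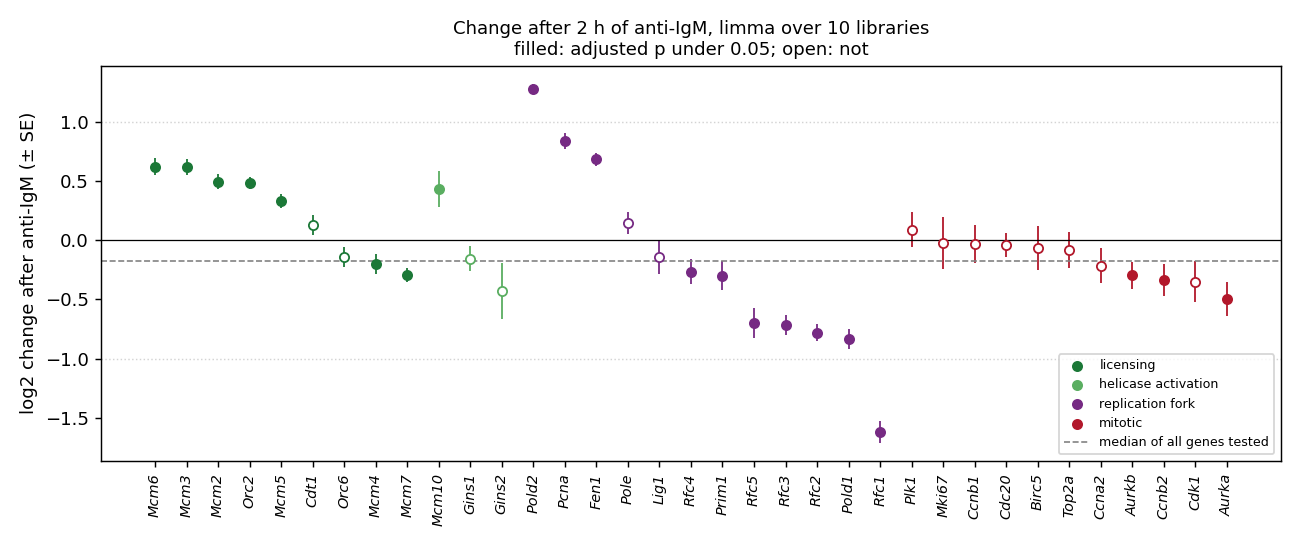
Log2 change after 2 h of anti-IgM for the 35 tested genes by role (limma on log2(FPKM + 1), 8 stimulated against 2 unstimulated libraries). Points and bars are the estimate and its standard error, filled points have an adjusted p under 0.05 in limma, and the dashed line is the median of all tested genes, -0.17. Pold2 at 1.28 and Rfc1 at -1.62 are farthest from 0, and no mitotic gene is above 0.091.

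The mitotic genes changed little: 3 fell, none rose and 8 did not pass the test. The 3 were the kinases Aurka (-0.50, SE 0.15) and Aurkb (-0.30, SE 0.12) and cyclin B2, Ccnb2 (-0.34, SE 0.13). Aurkb and Ccnb2 turned to 0.11 and 0.077 with quantile normalization, and Aurka did not pass there, with median-of-ratios scaling or without the unstimulated labelled knockout library (adjusted p = 0.103 in limma). Mki67, the proliferation marker, changed by -0.022 (SE 0.22), and its stimulated libraries ran from 4.91 to 10.9 FPKM against 6.56 and 6.35 without stimulation. The group's median change was -0.079 and turned to 0.13 with median-of-ratios scaling. The mean log2 level of licensing members minus that of mitotic members was 1.57 and 1.75 in the unstimulated wild-type and labelled knockout libraries, 2.07, 1.93, 1.98 and 2.08 in the stimulated wild type, and 2.10, 1.72, 2.16 and 2.15 in those labelled knockout. It was higher in 7 of the 8 stimulated libraries than in both unstimulated ones, and library B of the labelled knockout was the exception.

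Between genotypes after anti-IgM, Mcm6 was lower and Pcna slightly higher in the libraries labelled knockout, and no other member was called. The test was limma on the 8 stimulated libraries at an adjusted p under 0.05. It called 9.72% of all tested genes, 3.91% higher and 5.81% lower in the labelled knockout, so the members' share, 2 of 35, is no higher than the background. The differences were positive for 14 members and negative for 21, with a median of -0.035 against -0.024 for all tested genes.

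Mcm6 had 75.9, 80.8, 78.9 and 75.2 FPKM in the stimulated wild type and 61.1, 67.7, 58.8 and 59.4 in those labelled knockout. Every wild-type library was above every one labelled knockout, at 77.7 ± 2.62 against 61.8 ± 4.09 (SD, n = 4 each). The log2 difference was -0.33 (SE 0.046; limma, adjusted p = 0.00171), and it passed under all 17 alternative settings, with adjusted p from limma between 0.000336 and 0.0103. Without stimulation the libraries had 44.8 and 44.5, so the response was 0.78 in wild type and 0.46 in the labelled knockout. The difference between responses was not tested, since each genotype has 1 unstimulated library. None of the other 5 genes of the ring was called, and their log2 differences lay between -0.048 and 0.026.

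Pcna was 290.1 ± 6.65 FPKM in the stimulated wild type and 312 ± 8.13 in those labelled knockout, with no overlap, a log2 difference of 0.10 (SE 0.026; limma, adjusted p = 0.0368). The call held under 8 of 17 alternatives, with adjusted p from limma between 0.0146 and 0.434. It was lost without any 1 of wild-type libraries A, B or D or labelled knockout libraries B, C or D. Without stimulation the order was the other way, 184 in wild type and 152 in the labelled knockout library.

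The fork genes Rfc3 and Pole had an unadjusted p under 0.05 without passing the adjusted test. Rfc3 had 15.3 and 14.2 FPKM in the unstimulated wild-type and labelled knockout libraries, 9.01, 9.58, 9.45 and 9.56 in the stimulated wild type and 7.46, 9.14, 8.17 and 6.73 in those labelled knockout, where only library B reached the wild-type range (log2 difference -0.24, SE 0.077; limma, adjusted p = 0.0962). Pole had 3.65 and 3.18 without stimulation, then 3.95, 3.97, 4.92 and 4.16 against 3.04, 3.84, 3.45 and 3.92, without overlap but with neighbouring extremes (log2 difference -0.20, SE 0.084; limma, adjusted p = 0.193). Groups did not overlap for 3 members, Mcm6, Pcna and Pole, and for 15.5% of all tested genes.

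No mitotic member was called between genotypes, and none had an unadjusted p under 0.05, but 1 library stands apart. Labelled knockout library B was the highest of the 4 labelled knockout in 12 of 12 mitotic members and the highest of all 8 stimulated libraries in 10 of 12. It is the highest of the 8 for 14% of all tested genes, for 4 of the 11 licensing members and for 8 of the 12 fork members. Among the 4 labelled knockout it was also the highest for 9 of the 11 licensing and 9 of the 12 fork members. The share of all tested genes that were highest in it among those 4 was not computed. Mki67 was 10.9 FPKM there, against 4.96, 4.92 and 4.91 in the others labelled knockout and 5.91, 7.35, 7.10 and 6.30 in the wild type. Ccna2, cyclin A2, was 4.90 there, against 2.81, 2.82 and 2.85 in the others, 3.84, 3.6, 3.47 and 3.37 in the stimulated wild type and 4.24 and 4.0 in the unstimulated libraries; 12.5% of its exon bases lie in exons of Exosc9 on the other strand. The sum over the 12 mitotic members was 59.3 FPKM in that library, 34.2 to 36.2 in the other 3 and 40.1 to 46.3 in the wild type. In these bulk samples, more cells of a dividing type and more RNA per cell cannot be told apart.

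Markers of germinal centre B cells, which divide rapidly in the tissues sampled, were, like the mitotic genes, highest in library B among the 4 labelled knockout. Library B had the highest level of the 4 labelled knockout for 7 of 7 such markers (Bcl6, Fas, S1pr2, Rgs13, Mybl1, Gcsam and Mef2b), and none of the 7 was at 0 in any library. It was also the highest of the 4 for 24 of 34 other replication genes and 15 of 20 E2F and DREAM regulators described below. It was so for 2 of 6 plasma cell, 0 of 7 erythroid and 1 of 8 T cell markers. Their sum was 56.7 FPKM in that library, 36.1 to 41.2 in the other 3 and 41.5 to 48.2 in the stimulated wild type. Mef2b, a transcription factor of germinal centre B cells, was 4.07 in library B, 1.76, 2.62 and 1.74 in the others, 3.01, 2.94, 3.7 and 2.97 in the stimulated wild type, and 2.21 and 3.23 in the unstimulated wild-type and labelled knockout libraries. Library B was above every stimulated wild-type library for that gene, and the other 3 were below every one. S1pr2, Rgs13, Mybl1 and Gcsam had the same order, but Fas and Bcl6 did not. Fas was above every stimulated wild-type library in all 4 labelled knockout, at 9.02 to 11.98 FPKM against 6.4 to 8.01. Bcl6 in library B, at 13.8, lay within the stimulated wild-type range of 13 to 14.01. Summed myeloid markers were also high in library B, at 108.5 FPKM against 28.7 to 75.4 in the others, and in wild-type library B, at 149.5. Most of each sum was 1 gene, Lyz2, at 82.6 and 115 FPKM. Labelled knockout library B was the highest of its 4 for 5 of the 8 myeloid markers, but the lowest for S100a8 and S100a9. The mean log2 level of the 8 was 2.35 there and 2.32 in labelled knockout library A. Summed B cell markers were 1205 in labelled knockout library B and 1088 to 1144 in the others labelled knockout. In the comparison of all 8 stimulated libraries, limma called the markers Fas (log2 difference 0.48), Prdm1 (0.44) and Lck (0.48) higher and Cd79b (-0.32) lower in the labelled knockout, and no other marker. The part of these cells in the mitotic values was not tested.

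Without labelled knockout library B, a choice made with its values in view, 4 members were called lower in the labelled knockout: Mcm6 (log2 difference -0.37), Mki67 (-0.37; limma, adjusted p = 0.0173), Rfc3 (-0.30; limma, adjusted p = 0.0204) and Ccna2 (-0.26; limma, adjusted p = 0.0331). All 11 tested mitotic members were then negative, with a median of -0.23 against -0.030 for all tested genes, and 6 had an unadjusted p under 0.05. Over all tested genes 6410 of 10225 were negative, 2359 had an unadjusted p under 0.05 and 576 were called lower. The germinal centre markers moved as well, 5 of 7 being called lower and Fas higher, with a median of -0.43. Library B was the highest of the 4 labelled knockout for all 12 mitotic members and all 7 of these markers. Leaving it out therefore lowers the labelled knockout mean of each by construction, so these signs and calls are no independent test of genotype. With all 8 stimulated libraries, 8 of the 11 tested mitotic members were negative and none was called.

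**Figure D3:**
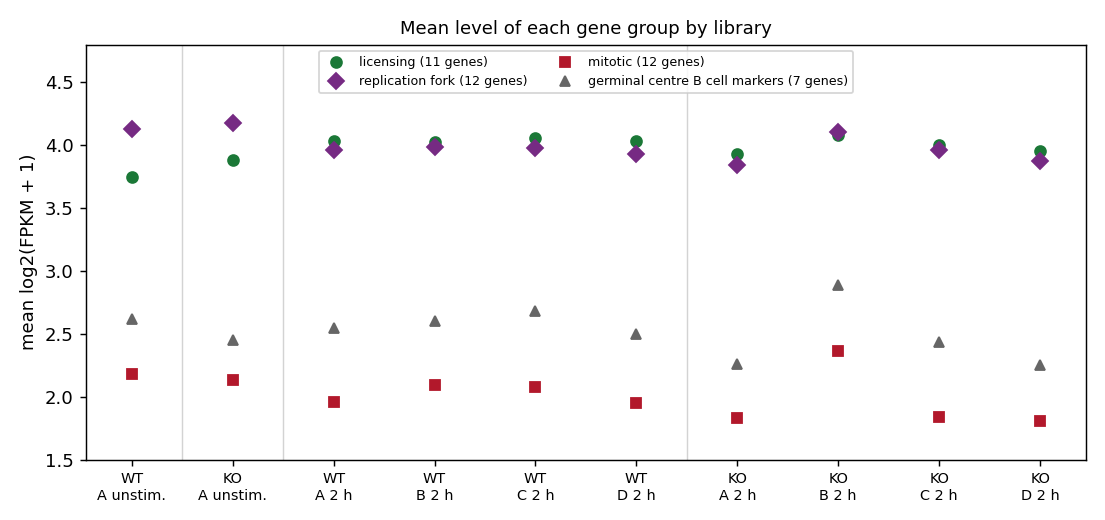
Mean log2(FPKM + 1) of the licensing, replication fork and mitotic members and of the germinal centre markers, 1 point per group and library (WT, wild type; KO, labelled knockout; unstim., unstimulated; 2 h, anti-IgM). The mitotic mean is 2.36 in labelled knockout library B, against 1.81 to 1.84 in the other 3 and 1.95 to 2.10 in the stimulated wild type.

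Before stimulation, with 1 library per genotype and no test, the largest differences of labelled knockout minus wild type were in Lig1 (log2 0.60), Cdt1 (0.52), Pold1 (0.47) and Rfc4 (-0.45). These values have no replicate check. The licensing members' median response was 0.39 in wild type and 0.27 in the labelled knockout, and that of the mitotic members was -0.093 and -0.15. Over all tested genes it was likewise lower in the labelled knockout, at -0.13 in wild type and -0.21. The median unstimulated difference of all tested genes was 0.067. With median-of-ratios scaling the licensing values were 0.59 and 0.52, and the wild-type mitotic value turned to 0.085.

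Genes of the same pathways outside the 38 behaved variously. Of 34 other replication genes, 31 were tested; Top1, the topoisomerase that relaxes DNA ahead of the fork, was called higher after anti-IgM (1.01), and 5 were called lower by the same rule. The latter were the polymerase delta subunit Pold4 (-1.66), the single-strand binding proteins Rpa1 (-1.63) and Rpa3 (-1.23), the origin subunit Orc5 (-1.16) and geminin, Gmnn, the inhibitor of Cdt1 (-1.004). By the adjusted p alone 7 rose and 17 fell. Between genotypes only Timeless, a fork protection factor, was called, lower by -0.27 (limma, adjusted p = 0.0356), and it passed in 6 of 16 alternatives. Over all tested genes 9.72% were called between genotypes.

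Of 40 other mitotic genes, 32 were tested, and the phosphatase Cdc25b (-2.27) and the kinetochore gene Ndc80 (-1.96) were called lower after anti-IgM. By the adjusted p alone 13 fell and 1 rose, the condensin subunit Ncaph (0.37; adjusted p = 0.0378 in limma), a gene named here after its value was seen. Of all tested genes 47.7% fell and 31.2% rose, and 12.4% were called lower by the rule with a change of 1 or more. With each of 3 other scalings 7 of the 13 falls kept their sign and passed. In the labelled knockout 3 of the 32 were called lower and none higher, where 5.81% of all tested genes were called lower. Cenpa, the centromeric histone, had 33.4 and 34.1 FPKM in the unstimulated wild-type and labelled knockout libraries, 23.9, 24.4, 25.2 and 24.2 in the stimulated wild type and 14.1, 16.3, 13.2 and 13.7 in those labelled knockout (log2 difference -0.73; limma, adjusted p = 6.22e-05). Pttg1, securin, had 22.6 and 20.9 without stimulation, then 21.5, 25.8, 22.2 and 23.9 against 13.6, 14.6, 15.1 and 13.6 (-0.68; limma, adjusted p = 0.000114). Smc4, a condensin subunit, differed by -0.26 (limma, adjusted p = 0.00844). It had 53.5 and 43.4 FPKM in the unstimulated wild-type and labelled knockout libraries, so the order was the same before stimulation. In these genes, unlike Mki67, library B lay with the other libraries labelled knockout and below every wild-type library, although it was the highest of the 4 for Cenpa and Smc4. All 3 passed under all 17 alternatives. Over the 40 genes library B was the highest of the 4 labelled knockout for 38 and the highest of the 8 stimulated libraries for 30.

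**Figure D4:**
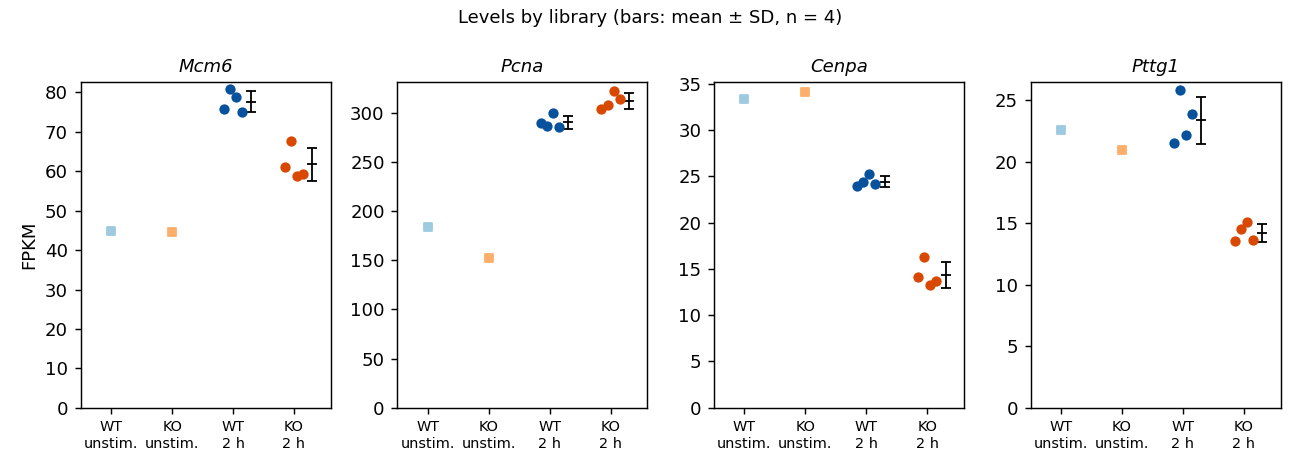
FPKM of Mcm6, Pcna, Cenpa and Pttg1 in each library, 1 panel per gene with its own axis from 0 (WT, wild type; KO, labelled knockout; unstim., unstimulated; 2 h, anti-IgM). Squares are single unstimulated libraries, circles stimulated libraries, and bars their mean ± SD (n = 4); the stimulated groups do not overlap in any of the 4 genes, Mcm6 for example lying at 75.2 to 80.8 in wild type and 58.8 to 67.7 in the labelled knockout.

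Of 20 regulators of the E2F and DREAM system, 18 were tested, and 4 were called lower after anti-IgM: the pocket protein genes Rbl2 (-1.996) and Rbl1 (-1.32), E2f2 (-1.55) and the E2F partner Tfdp2 (-1.30). The rule with a change of 1 or more called 12.4% of all tested genes lower. By the adjusted p alone 6 of the 18 rose and 8 fell, against 31.2% and 47.7% of all tested genes. All 6 rises and 6 of the 8 falls kept their sign and passed with each of 3 other scalings. Between genotypes Rb1, the retinoblastoma gene, was lower in the labelled knockout, at 17.0 ± 0.646 FPKM in wild type and 12.4 ± 0.611 (SD, n = 4 each). The log2 difference was -0.43 (limma, adjusted p = 0.000295). Without stimulation the single libraries of Rb1 were already in that order, at 24.9 FPKM in wild type and 18.65 in the labelled knockout. Tfdp2 was also called lower after anti-IgM in the labelled knockout (-0.29, adjusted p = 0.0315 in limma) and passed in 8 of 16 alternatives. Of all tested genes 5.81% were called lower between genotypes.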

How the data were processed

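The study deposited 1 table of FPKM values per gene for all 10 libraries, prepared with the Illumina TruSeq Stranded mRNA kit per the labels' protocols. The authors used STAR 2.4, RSEM 1.2.14 and mm10, per the submitters' processing notes; annotation and strand setting are not given in the sources used here. Values are rounded to 2 decimals, depth is known only as a rough relative estimate, and FPKM totals differ between libraries. Here 10225 genes, those whose mean over libraries reached 1 FPKM, were fitted on log2(FPKM + 1) with limma 3.58.1 (lmFit, eBayes with trend) in R 4.3.3, two-sided, with Benjamini-Hochberg adjustment over all of them. The genotype test used the 8 stimulated libraries; the anti-IgM test used all 10 with genotype as a term. The code was tested on simulated data.

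Values in every library are given for members called in either test or with an unadjusted genotype p under 0.05, and for the highest and lowest member of each role group; Mki67, Ccna2, Cenpa, Pttg1 and Mef2b were given in full after their values were seen. In the 3 other pathway lists genes called by the main rules are named, at most 4 each way, except that the fifth replication gene called lower, Gmnn, is also named. The members and all lists, markers of B, germinal centre, plasma, erythroid, T and myeloid cells included, were chosen with earlier results of these data known. A marker was left out of each of the B cell and germinal centre lists, for a reason unrelated to its values, and is not reported here. Alternatives were other pseudocounts, filters and scalings, eBayes without trend, the letter as block, and leaving out each library. Exon overlaps come from GENCODE M21. The names Ccnb1-ps, Ccnb2-ps, Pcna-ps1 and Pcna-ps2 in that annotation mark pseudogene copies, so the values of Ccnb1, Ccnb2 and Pcna are uncertain. Summed plasma cell markers were 72.1 to 95.6 FPKM and erythroid ones 7.84 to 123 over the libraries.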

Additional observations from a re-analysis of the deposited data

Results flagged for a closer look

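In labelled knockout library B, 3 mitotic genes lay far from the other 3 stimulated libraries labelled knockout. Ccna2 was 4.9 FPKM there and 2.81 to 2.85 in the others, Top2a was 12.9 and 7.74 to 8.39, and Mki67 was 10.9 and 4.91 to 4.96. The mean log2(FPKM + 1) of the mitotic members was 2.36 there and 1.81 to 1.84 in the others. Of 84 groups of 4 libraries examined 4 gave such a gap, where chance gives about 4.2 (1 in 20), and all 4 are in that library; genes of 1 library are not independent.

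The genotypes' responses to anti-IgM had opposite signs in 2 genes, in every stimulated library against the 1 unstimulated library of its genotype. For Cdt1 the log2 response was 0.369 in wild type and -0.109 in the labelled knockout. For Lig1 it was 0.138 in wild type and -0.415 in the labelled knockout. In the unstimulated wild-type and labelled knockout libraries Cdt1 was 27.2 and 39.6 FPKM and Lig1 6.97 and 11.05. The stimulated means were close, at 35.5 and 36.7 for Cdt1 and 7.78 and 8.14 for Lig1, with overlapping values. The signs thus rest on the single unstimulated libraries, and stimulated libraries that share 1 baseline do not replicate them. The difference was not tested in either gene.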

How the results depend on the processing

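Mcm6 between genotypes, and Pold2 and Rfc1 after anti-IgM, kept their direction and passed the adjusted p of limma under every alternative run. The number of members called between genotypes, 2, was 1 without a filter on low values, 1 with quantile normalization and 1 with eBayes without trend, and 1 to 4 when 1 library was left out, with 4 only without labelled knockout library B. All genes called lower between genotypes numbered 594, and 377 with median-of-ratios scaling, where 59.7% of calls were higher against 40.2% as deposited (52.0% with quantile normalization).

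After anti-IgM, 2078 genes were called (812 higher, 1266 lower). With a pseudocount of 5 there were 1132 (534 higher, 598 lower), and lower calls numbered 824 when a mean of 5 FPKM was required and 801 with median-of-ratios scaling. Higher calls were 52.2% with TPM rescaling and 51.2% with quantile normalization. Pcna was added to the members called with TPM rescaling and with median-of-ratios scaling. With the adjusted p alone 8069 genes passed (3188 higher, 4881 lower) and 21 members. Leaving out 1 library gave 2 to 4 members, with 4 only without the unstimulated wild-type library (Pcna and Pold1 were added), and 16 to 24 members by the adjusted p alone. Mcm4 turned to 0.022 with median-of-ratios scaling, and Aurkb (0.11), Ccnb2 (0.077), Prim1 (0.015) and Rfc4 (0.024) with quantile normalization. The median change of all genes was -0.17 as deposited, 0.035 with median-of-ratios scaling and -0.0022 with quantile normalization. With median-of-ratios scaling the licensing response was 0.59 in wild type and 0.52 in the labelled knockout and the mitotic response in wild type 0.085; with a pseudocount of 5 the licensing response in wild type was 0.33 and the unstimulated licensing difference 0.12 (0.15 as reported).

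Among the stimulated libraries the letters A to D showed no pairing between genotypes: correlations of same-letter deviations from the group means were -0.12 to 0.045. Of the wild-type libraries 0 of 4 correlated best with their own letter, and of those labelled knockout 1 of 4 did. Whether unstimulated library A pairs with stimulated library A of its genotype was not tested. With the letter as a replicate block 740 genes were called between genotypes (329 higher, 411 lower) and 2 members, and after anti-IgM 2039 genes (815 higher, 1224 lower), 2 members, and 21 by the adjusted p alone. With 1 unstimulated library per genotype, the anti-IgM test assumes that unstimulated libraries vary as the stimulated ones do.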
